A study of Homo sapiens with 6 samples.

Results

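The genes described here encode the nuclear pore complex, the protein channel through which all large traffic between nucleus and cytoplasm passes. The 32 genes were taken from a list of nucleoporins grouped by subcomplex, and all 32 had an entry among the 59050 of the deposited expression table (NUP42 under its older symbol NUPL2). Of these, 9 belong to the Y complex, 5 to the inner ring, 4 to the central channel, 3 to the nuclear basket, 6 to the cytoplasmic face and 5 to the membrane ring. The assignments of NUP98 (channel), RAE1 (cytoplasmic) and AAAS (membrane, as the partner of NDC1) are choices, since each can be placed elsewhere.

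Bulk RNA-seq was made from HFF, human foreskin fibroblasts, with 3 libraries per group. All cells had been infected at about passage 18 with a viral vector for ER:RAS, a fusion through which 4-hydroxytamoxifen (4-OHT) turns on H-RAS (G12V), and resistant clones had been taken under neomycin at 200 µg/ml. HEK293T cells, a human kidney line, packaged the virus. The 4-OHT group received 100 nM of the drug for 1 week and was collected in oncogene-induced senescence, the lasting growth arrest that follows oncogenic RAS. The other group, labelled DMSO (the usual vehicle), belongs to the same model, and the labels do not give its time of harvest. Cells without the vector under 4-OHT were not analysed here, so effects of the drug and of RAS cannot be told apart. Nothing in the labels says whether replicates were separate cultures, so a p-value reflects how much these libraries vary, which may be technical.

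Nuclear pores are built from copies of about the same set of proteins in every cell. Y complexes and the inner ring form the scaffold, membrane proteins anchor it in the nuclear envelope, and nucleoporins rich in phenylalanine-glycine repeats fill the channel and bind the transport receptors. The basket faces chromatin, and the cytoplasmic filaments finish mRNA export. Dividing cells must make new pores for each daughter nucleus, and several Y complex members also sit at kinetochores in mitosis. In oncogene-induced senescence the pore, and TPR of its basket in particular, is known for its link to heterochromatin foci.

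Levels are TPM, a measure of transcript abundance scaled for length and for the total of each library, and changes are log2 fold changes, 4-OHT minus DMSO, on log2(TPM + 1). Genes that averaged 1 TPM or more over the libraries were tested with limma, and a gene is called at an adjusted p under 0.05 over all genes tested. The pore transcripts fell more often than they rose. Of 31 members tested 17 were lower (54.8%) and 2 higher (6.45%), against 29.9% lower and 19.8% higher among all 15272 genes tested. Their median log2 fold change was -0.30, against -0.09 for all genes tested. NDC1, NUP107, NUP37, NUP85 and NUP62 fell most, while RANBP2 and POM121 rose. All 3 4-OHT libraries lay below all 3 DMSO libraries in 20 of the 31 (35.2% of all genes tested did so) and above them in 6 (23.8% of all genes).

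The balance of directions moved with the scaling between libraries, which shifted log2 fold changes by a median of 0.113 (median of ratios) or 0.13 (quantile normalization) over all genes. Under median-of-ratios scaling 13 of 31 members were lower and 7 higher, beside 23.5% lower and 26.5% higher among all genes tested. Of all called genes 47.0% were lower in place of 60.2%. Under quantile normalization 13 were lower and 2 higher, beside 23.8% lower and 23.7% higher among all genes tested. Of all called genes 50.1% were then lower. Of the 19 members called, 13 kept their call and direction under each alternative run for them: RANBP2 and 12 that fell. TPM are relative to the rest of the library, and in bulk RNA fewer cells with a transcript and less of it per cell cannot be told apart.

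All 9 fibroblast markers were expressed, with a summed level of 19034 to 19441 TPM in 4-OHT and 20087 to 20692 in DMSO, 6 of them lower and 3 higher in 4-OHT. Of the markers of other cells, KRT5, KRT14, KRT1, TP63, CDH1, CDH5, KDR, MS4A1, TYR and DCT were under 0.1 TPM in every library, while others were not. CD14, of monocytes, was called higher in 4-OHT (5.24 ± 1.7 against 2.14 ± 0.822 TPM, adjusted p = 0.0187), and so was DSP, a desmosome gene (42.4 ± 0.479 against 17 ± 0.268). EPCAM of the keratinocyte list was called lower (0.6 ± 0.135 against 1.55 ± 0.132). So were TEK of the endothelial list (0.366 ± 0.106 against 1.97 ± 0.149) and PMEL of the melanocyte list (0.49 ± 0.118 against 1.66 ± 0.604). PECAM1 of the endothelial list went the other way without overlap (0.976 ± 0.197 against 0.334 ± 0.141) but was too low to be tested. Of that list KDR, also too low, lay above as well, and CLDN5 below. KRT10, CD68 and MITF overlapped between the groups and were not called. PTPRC, of all leukocytes, was at 0.272, 2.36 and 0.726 TPM in 4-OHT and 1.43, 0.664 and 0.453 in DMSO, with overlapping groups. Summed over their lists, keratinocyte markers were at 75.5 to 85.9 TPM against 54.8 to 69.3, most of it KRT10 and DSP. The endothelial list stood at 1.38 to 1.87 against 2.54 to 2.8, the immune list, mostly CD68, at 59.7 to 67.3 against 60.1 to 90.5, and the melanocyte list at 6.51 to 6.82 against 8.5 to 9.55. All 19 proliferation genes fell (median -2.38), MKI67 from 34.1 ± 1.29 to 5.17 ± 0.38 TPM. Mitochondrially encoded genes were listed at 0 in every library, while their nuclear copies held 7.84% to 8.65% of TPM in 4-OHT and 6.54% to 6.77% in DMSO. The part of these differences in the results on the pore was not tested.

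**Figure D1:**
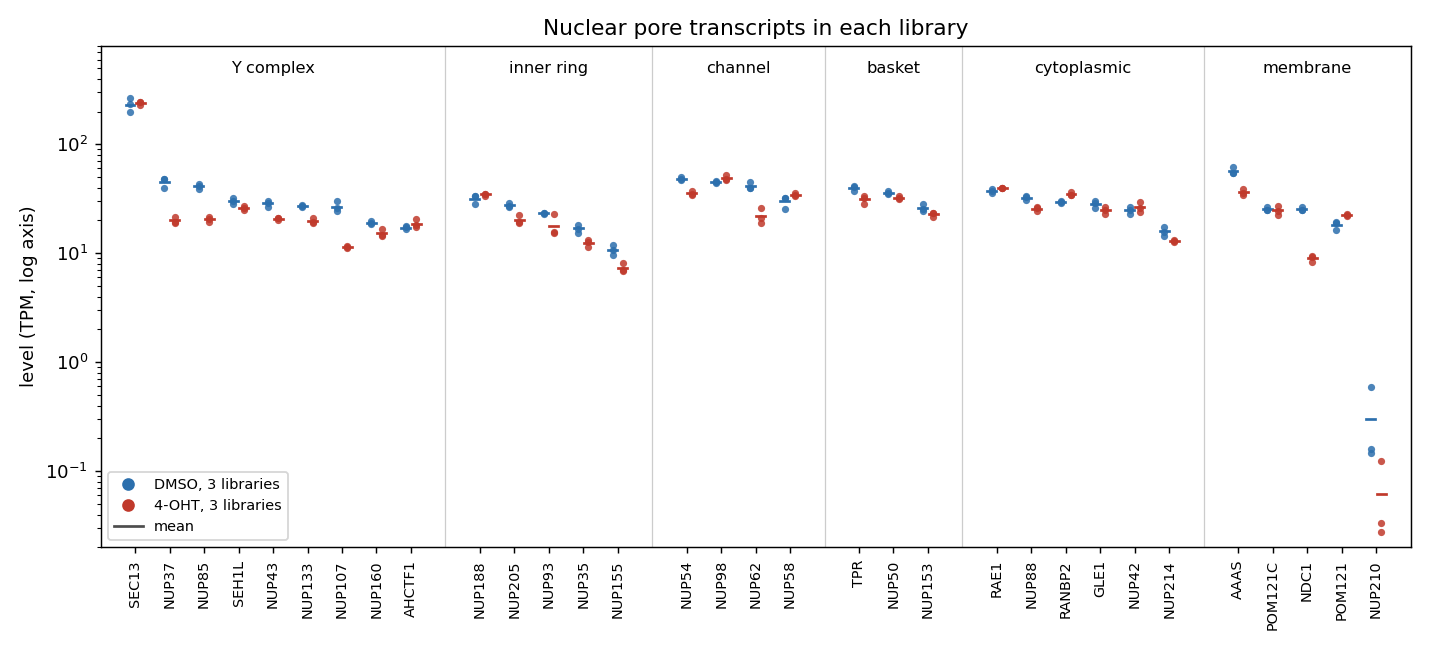
Level of each of the 32 nuclear pore transcripts (TPM, log axis) in the 3 DMSO libraries (blue) and the 3 4-OHT libraries (red), by subcomplex, with bars at the group means. SEC13 stands above all others, NUP210 is below 1 TPM, and the libraries of NDC1, NUP107, NUP37 and NUP85 are clearly apart between the groups.

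The members differed widely in level in DMSO. SEC13 led in DMSO at 232 ± 35.2 TPM (SD, n = 3), followed by AAAS at 57.0 ± 4.40, NUP54 at 48.2 ± 1.86 and NUP98 at 45.2 ± 1.31. SEC13 serves also in the COPII coat of vesicles that leave the endoplasmic reticulum. Most others lay between NUP155 at 10.8 ± 1.11 and NUP37 at 45.0 ± 4.55. In that order 24 of the 31 neighbouring pairs had overlapping libraries, so most neighbours did not differ beyond their spread. NUP210, a large membrane nucleoporin that not every cell type makes, was the exception at the bottom, at 0.160, 0.148 and 0.589 TPM in DMSO and 0.0338, 0.125 and 0.0275 in 4-OHT. It was too low to be tested.

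In the Y complex 7 of 9 members were lower (77.8%, against 29.9% of all genes tested) and none was higher (19.8% of all). The median was -0.44. Over the alternatives 5 to 7 were lower. NUP107 (chromosome 12, 68686734 to 68745809, GRCh38), at the stem of the Y, was read at 29.9, 25.8 and 24.6 TPM in DMSO and at 11.1, 11.7 and 11.4 in 4-OHT. That is 2.35-fold lower (-1.16, SE 0.0884, adjusted p = 4.61e-05). Its 4-OHT libraries were tightly grouped and far below the lowest DMSO library. NUP37 (chromosome 12, 102073103 to 102120124), which sits on the arm of NUP160, was at 47.6, 39.8 and 47.7 in DMSO and at 19.5, 21.6 and 19.1 in 4-OHT (-1.12, SE 0.0915, adjusted p = 6.37e-05). NUP85 (chromosome 17, 75205659 to 75235758), of the other arm, was at 39.2, 41.5 and 43.0 against 20.7, 19.5 and 21.6 (-0.97, SE 0.0673, adjusted p = 2.88e-05). For these 3 genes every 4-OHT library was below every DMSO library, and the gap was wider than the spread of either group.

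Other arm and stem proteins fell less. NUP133, which joins NUP107 at the stem, was at 27.3, 28 and 26.4 TPM in DMSO and 19.5, 18.9 and 21.1 in 4-OHT (-0.44, adjusted p = 0.00162). NUP43, bound to NUP85, went from 28.7 ± 1.91 to 20.8 ± 0.442 (-0.44, adjusted p = 0.00171). NUP160 was at 19.1 ± 0.595 against 15.3 ± 1.32 in 4-OHT (-0.30, adjusted p = 0.0198). That call was lost under both scalings and without 4-OHT replicate 1 or 3 or DMSO replicate 2 or 3 (adjusted p from 0.0122 to 0.0909 over the alternatives). SEH1L, the partner of NUP85 that also acts in the nutrient-sensing GATOR complex, was at 30.2 ± 2.02 against 26.0 ± 0.898 (-0.20, adjusted p = 0.0465). Of the alternatives, 10 took its p past the threshold (0.035 to 0.336), among them each omission of a library but that of DMSO replicate 1.

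Neither of the remaining Y complex genes was called. SEC13 was read at 234, 196 and 267 TPM in DMSO and 246, 245 and 232 in 4-OHT (0.06, adjusted p = 0.637), and the sign turned under quantile normalization (-0.01) and without DMSO replicate 2 (-0.05). AHCTF1 encodes ELYS, which brings Y complexes to chromatin when pores re-form after mitosis. It stood at 17.7, 17.3 and 16.6 in DMSO and 18.1, 17.6 and 20.5 in 4-OHT (0.12, adjusted p = 0.265). Its groups overlapped narrowly, and it was called higher with median-of-ratios scaling (0.23, the lowest adjusted p of the alternatives at 0.0455, the highest being 0.607). Of the stretches of 100 bases in its longest coding transcript, 31.5% are shared with the pseudogene AHCTF1P1.

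Partners within the Y complex stood in other ratios in 4-OHT. In each library NUP107 was divided by NUP133: the ratio was 1.10, 0.921 and 0.931 in DMSO and 0.568, 0.616 and 0.539 in 4-OHT. NUP37 per NUP160 went from 2.58, 2.02 and 2.51 to 1.36, 1.28 and 1.29, and NUP85 per SEH1L from 1.39, 1.38 and 1.33 to 0.794, 0.725 and 0.860. None of these ratios overlapped between the groups. The pairs were chosen after the values were seen, so the ratios are a description.

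**Figure D2:**
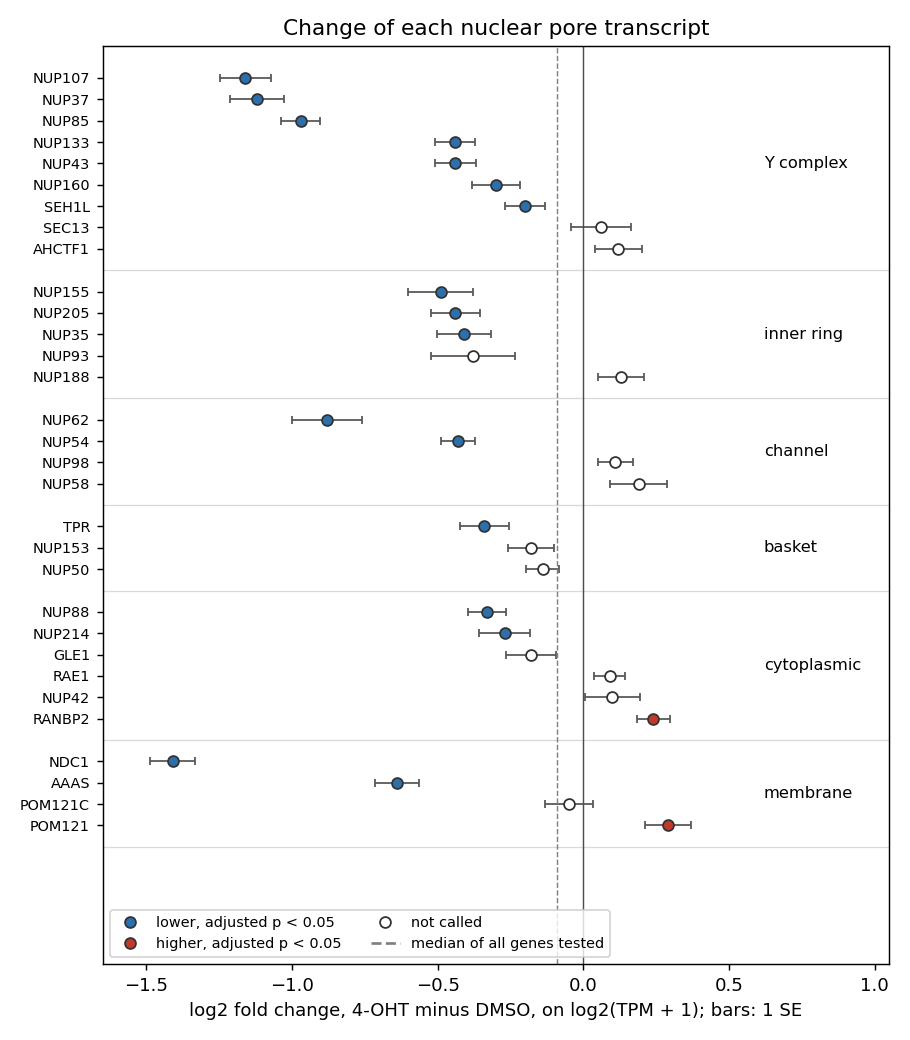
Log2 fold change of the 31 members tested (4-OHT minus DMSO on log2(TPM + 1), bars 1 SE), ordered within each subcomplex, with blue for called lower, red for called higher and white for not called. The broken line marks the median of all genes tested, -0.09, and NDC1 lies farthest to the left at -1.41.

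The inner ring lines the pore membrane, and 3 of its 5 genes fell (60.0%, against 29.9% of all genes tested, median -0.41). NUP205, a large scaffold protein, was at 27.4, 26.5 and 29.1 TPM in DMSO and 19.3, 18.9 and 22.5 in 4-OHT (-0.44, SE 0.0841, adjusted p = 0.00432). NUP188 is its structural relative. It was at 33.6, 33.4 and 28.4 in DMSO and 33.8, 35.2 and 35.1 in 4-OHT (0.13, adjusted p = 0.222), so that all 4-OHT libraries were above, by a narrow margin, without passing the test. NUP188 was called higher with median-of-ratios scaling (0.24, the lowest adjusted p of the alternatives at 0.0335, the highest being 0.543).

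NUP155 and NUP35, both of which touch the membrane, were at 10.8 ± 1.11 against 7.38 ± 0.718 in 4-OHT (-0.49, adjusted p = 0.00909) and at 16.9 ± 1.36 against 12.4 ± 0.954 (-0.41, adjusted p = 0.009). The NUP155 call was lost under quantile normalization (-0.28, adjusted p = 0.0781; 0.00795 to 0.0781 over the alternatives). NUP93, which links the ring to the channel, rests on 1 library. It was even in DMSO at 23.3, 23.3 and 23.1 TPM, and in 4-OHT read at 15.2, 15.8 and 22.7 (-0.38, adjusted p = 0.0636). With 4-OHT replicate 3 left out NUP93 was called lower at -0.55 (adjusted p = 0.00169; 0.00169 to 0.199 over the alternatives).

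Of the 4 channel genes 2 fell and none was called higher, beside 29.9% lower and 19.8% higher among all genes tested. Their median was -0.16, against -0.09 for all genes tested. NUP62 (chromosome 19, 49906825 to 49929763), a repeat protein at the heart of the channel, was at 45.2, 39.8 and 39.5 TPM in DMSO and 19.0, 26.3 and 21.3 in 4-OHT, 1.87-fold lower (-0.88, SE 0.121, adjusted p = 0.000873). Its complex partner NUP54 was at 50.3, 47.6 and 46.7 against 34.9, 34.3 and 37.3 in 4-OHT (-0.43, SE 0.0593, adjusted p = 0.000882). NUP58, the third subunit of the same complex, was not lower. It read 32, 32.4 and 25.7 in DMSO and 34.0, 33.2 and 35.8 in 4-OHT (0.19, adjusted p = 0.14), and median-of-ratios scaling made it a call (0.31, the lowest adjusted p of the alternatives at 0.0318, the highest being 0.313). The ratio of NUP62 to NUP58, a pair also chosen after the values were seen, was 1.41, 1.23 and 1.54 in DMSO and 0.559, 0.793 and 0.595 in 4-OHT. Among other pairs computed, NUP93 per NUP205 and NUP98 per RAE1 overlapped between the groups.

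NUP62 shares 626 exonic bases with ATF5 on the other strand and 336 with IL4I1 on its own. ATF5 fell as well, from 43.6 ± 3.77 to 29.5 ± 3.65 TPM, and IL4I1 from 2.44 ± 0.204 to 0.267 ± 0.223. Both were picked for their overlap after the values were seen. Whether counting used strand is unknown, and the part of these reads in the NUP62 value was not tested. NUP98, whose repeats bind many transport receptors, was at 45.1, 43.9 and 46.5 in DMSO and 48.0, 46.7 and 51.8 in 4-OHT (0.11, adjusted p = 0.172). It was called higher with median-of-ratios scaling (0.23, the lowest adjusted p of the alternatives at 0.0165, the highest being 0.417).

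All 3 basket genes had every 4-OHT library below every DMSO library, as did 35.2% of all genes tested. The differences were small, and 1 was called lower (33.3%, against 29.9% of all). TPR, the coiled-coil backbone of the basket, was at 36.9, 41.0 and 41.8 TPM in DMSO and 28.4, 32.1 and 33.8 in 4-OHT (-0.34, SE 0.0843, adjusted p = 0.0138). With libraries scaled by median of ratios it missed the threshold (-0.22, adjusted p = 0.0584, the highest over the alternatives, with 0.00924 the lowest). NUP153, which anchors the basket, stood at 26.1 ± 1.92 against 22.8 ± 1.28 in 4-OHT (-0.18, adjusted p = 0.0922), and NUP50, a mobile cofactor of import, at 35.9 ± 1.15 against 32.5 ± 0.912 (-0.14, adjusted p = 0.0776).

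At the cytoplasmic face 2 of 6 genes fell (33.3%) and 1 rose (16.7%), near the 29.9% and 19.8% of all genes tested. Their median was -0.05, above the -0.09 of all genes tested. RANBP2 (chromosome 2, 108719481 to 108785811), also called NUP358, forms the filaments and holds the Ran GTPase-activating protein at the pore. It rose from 28.7, 30.2 and 29.3 TPM in DMSO to 34.4, 34.3 and 36.2 in 4-OHT (0.24, SE 0.0568, adjusted p = 0.0103; 0.00151 to 0.0369 over the alternatives). The groups stood well apart, although the rise was only 1.19-fold. RANBP2 has near-identical copies, the RGPD genes: 14.6% of its stretches of 100 bases recur in other genes. The 7 RGPD genes summed to 29, 30.1 and 28.2 TPM in 4-OHT and 23.9, 26.5 and 26.1 in DMSO, so reads may have been divided among them and the RANBP2 level is uncertain to that extent.

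NUP88 and NUP214 form a complex that binds the export receptor. NUP88 was at 33.0, 33.6 and 30.6 TPM in DMSO and 24.4, 25.8 and 26.6 in 4-OHT (-0.33, SE 0.066, adjusted p = 0.00524), with 14.9% of its stretches of 100 bases lying opposite RPAIN. NUP214 was at 17.4, 15.8 and 14.5 against 13.2, 12.6 and 13.1 (-0.27, adjusted p = 0.0346). Its call was lost under 9 alternatives (0.0239 to 0.256 over all), among them each omission of a library but that of DMSO replicate 3.

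Several members share exonic bases with a gene on the opposite strand, where reads cannot be told apart without strand. NUP88 shares 468 with RABEP1, which was at 33.2 to 42 TPM, and 520 with RPAIN, at 25.2 to 33.2. NUP43 shares 223 with PCMT1, at 122 to 206 TPM, and POM121 shares 1849 with NSUN5P2, at 9.5 to 15.1. TPR shares 670 with PRG4, which did not exceed 0.151 TPM in any library.

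The genes of mRNA release differed little between the groups. GLE1, which activates the export helicase, was at 28.4 ± 2.05 against 24.9 ± 2.06 TPM in 4-OHT (-0.18, adjusted p = 0.119), and its cofactor NUP42 at 24.7 ± 1.84 against 26.6 ± 2.72 (0.10, adjusted p = 0.403). In both the libraries of the groups overlapped, and 27.8% of the stretches of NUP42 lie opposite an antisense gene. RAE1, the export factor bound to NUP98, read 38.5, 36.0 and 37.0 in DMSO and 40.0, 39.5 and 39.4 in 4-OHT (0.09, adjusted p = 0.2). It was called higher with median-of-ratios scaling (0.21, the lowest adjusted p of the alternatives at 0.0157, the highest being 0.41).

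The membrane ring held the deepest fall among the members tested. Of its 4 genes tested 2 were called lower and 1 higher, beside 29.9% lower and 19.8% higher among all genes tested. Their median was -0.34, against -0.09 for all genes tested. NDC1 (chromosome 1, 53765460 to 53838860), a transmembrane protein needed for pore assembly, was at 26.7, 25.2 and 24.9 TPM in DMSO and 9.29, 9.35 and 8.37 in 4-OHT. It fell 2.84-fold (-1.41, SE 0.077, adjusted p = 8.88e-06) with little spread in either group. AAAS encodes ALADIN, which NDC1 holds at the pore. It was at 62.1, 54.0 and 54.9 against 34.6, 38.8 and 35.6 in 4-OHT (-0.64, SE 0.0753, adjusted p = 0.000423). NDC1 per AAAS went from 0.430, 0.466 and 0.454 to 0.269, 0.241 and 0.235, a pair also chosen after the values were seen.

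POM121 and POM121C are near-identical membrane nucleoporins on chromosome 7 (72879365 to 72951440 and 75416787 to 75486271). POM121 was at 19.3, 18.8 and 16.5 TPM in DMSO and 22.4, 21.9 and 23.1 in 4-OHT (0.29, SE 0.0792, adjusted p = 0.019; 0.00439 to 0.19 over the alternatives), and the groups did not overlap. That call was lost without 4-OHT replicate 3 (adjusted p = 0.0587). POM121C was at 24.9, 25.1 and 26.8 against 22.6, 24.4 and 27.2 (-0.05, adjusted p = 0.629), with overlapping groups and a sign that turned under both scalings and without 4-OHT replicate 1. Other genes hold 45.9% of the stretches of 100 bases of POM121 and 41.1% of those of POM121C. With the pair summed into 1 value, an alternative chosen after the data were seen for this gene, the log2 fold change was 0.10 (adjusted p = 0.19). Such a sum would also dilute a rise of POM121 alone. The part of the division of reads between the copies was not tested.

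The upstream windows of this pair are shown because they let a reader see how alike the copies are. Each is the 250 bases before a RefSeq start (GRCh38.p14), POM121 at chr7:72879107-72879356 on the plus strand and POM121C at chr7:75486300-75486549 on the minus strand. Capitals mark matches to the ETS motif CCGGAAG on either strand and, in POM121, to the E2F motif. The windows aligned over 250 columns with 226 identical (90.4%).

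POM121: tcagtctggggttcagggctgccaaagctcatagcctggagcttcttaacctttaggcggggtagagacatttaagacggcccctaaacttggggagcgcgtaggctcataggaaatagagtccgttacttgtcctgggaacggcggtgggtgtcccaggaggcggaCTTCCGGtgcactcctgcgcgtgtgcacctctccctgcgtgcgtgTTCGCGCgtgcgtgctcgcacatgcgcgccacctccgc

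POM121C: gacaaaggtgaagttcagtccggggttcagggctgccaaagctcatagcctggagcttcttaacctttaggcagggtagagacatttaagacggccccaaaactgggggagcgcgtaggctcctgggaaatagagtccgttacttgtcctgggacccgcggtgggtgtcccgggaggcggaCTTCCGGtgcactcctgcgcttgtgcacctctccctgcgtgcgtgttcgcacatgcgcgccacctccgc

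Short motifs were then searched on both strands in the 250 bases before the RefSeq start of 29 members (37 windows, 7 members having more than 1). NUP43, AHCTF1 and GLE1 had no window, and windows of other members can reach into exons of GENCODE 29 or lie inside the gene. The cell cycle homology region (CHR), found in promoters of late cell cycle genes, was taken as TTTGAA or its variant TTCGAA. It was present in 21.6% of the members' windows, against 14.3% of all windows and 10.3% of those of genes tested. By gene, 4 of 16 members called lower and 3 of 13 others held it. E2F was taken as TTCCCGC, or TTGGCGC, or TTCGCGC, and was present in 16.2% of the windows, against 9.32% of all and 13.7% of those of genes tested (2 of 16 lower members and 4 of 13 others).

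The ETS motif CCGGAAG was in 37.8% of the members' windows, against 8.52% of all and 14.1% of those of genes tested, and in 8 of 16 lower members and 5 of 13 others. CCAAT was in 35.1% against 32% of all and 33.0% of those of genes tested (7 of 16 and 3 of 13). The NRF1 motif GCATGCG, which reads nearly the same on both strands, was in 8.11% against 3.39% and 5.05% (2 of 16 and 1 of 13). Among the members' matches, only those to NRF1 on opposite strands overlapped (NUP107, NUP62 and NUP50), and windows of 1 gene can overlap. These are counts of letters with no test.

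The CHR match nearest to the start in each of the 4 members that fell is shown with its flanks, 30 bases in the direction of the gene. NUP93, NUP98 and NUP153, which were not called, held the motif too and are not shown. Capitals mark the motif or its reverse complement. NDC1 is chr1:53838310-53838339 (minus strand), NUP37 chr12:102120163-102120192 (minus), NUP35 chr2:183124396-183124425 (plus) and NUP205 chr7:135557740-135557769 (plus). The motifs begin 31, 66, 35 and 165 bases before the start, and NDC1 has another at 228. NUP107 and NUP85, which fell as far as NUP37 or nearly so, had no CHR letters in their windows.

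NDC1: ggccttcctgccTTTGAActgcggtggcgg

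NUP37: cgctgaatacagTTCAAAcctcgcgggagg

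NUP35: gtttccgccattTTTGAAaattaattggga

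NUP205: gccctcgccttaTTTGAAtgggaataatcc

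Summed levels show how the make-up of the pore transcripts shifted. Without SEC13, whose level would dominate, the members added up to 918, 904 and 901 TPM in DMSO and 708, 732 and 752 in 4-OHT, 80.5% of the DMSO mean. The Y complex made up 25.6%, 25.7% and 26.5% of that sum in DMSO and 21.2%, 21.1% and 20.5% in 4-OHT. Cytoplasmic genes made up 18.6%, 18.5% and 18.5% in DMSO and 23.2%, 22.3% and 22.2% in 4-OHT, while their summed level was nearly level at 168 ± 2.25 against 165 ± 1.83 TPM. In neither subcomplex did the groups overlap. The membrane ring went from 14.0% ± 0.474 to 12.7% ± 0.209 and the channel from 18.2% ± 0.61 to 19.3% ± 0.147. Their groups did not overlap either. Inner ring (12.2% ± 0.23 against 12.7% ± 0.687) and basket (11.2% ± 0.576 against 11.9% ± 0.288) differed by no more than about their spread.

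**Figure D3:**
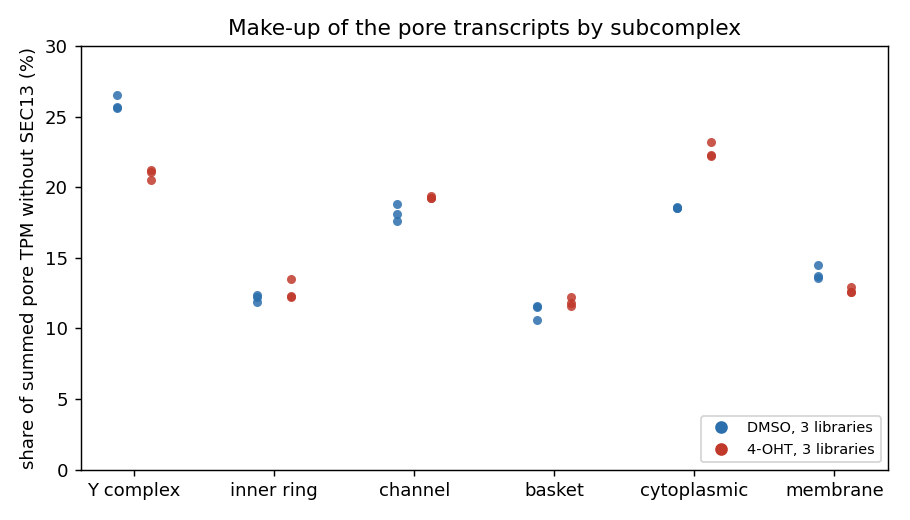
Share (%) of the summed TPM of the pore genes, without SEC13, that each subcomplex held in the 3 DMSO libraries (blue) and the 3 4-OHT libraries (red). The Y complex falls from 25.9% to 20.9% on average and the cytoplasmic genes rise from 18.5% to 22.6%.

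The soluble transport machinery that works through the pore was set beside it. Among importins, the receptors that carry cargo in, 7 of 18 tested were lower and 3 higher (median -0.07). KPNA2, an adaptor for classical import signals, was at 393, 401 and 380 TPM in DMSO and 254, 261 and 244 in 4-OHT (-0.63, SE 0.041, adjusted p = 2.07e-05). Its partner KPNB1 went from 186 ± 3.71 to 128 ± 5.14 (-0.54, adjusted p = 7.11e-05). Exportins fell in 2 of 7 with none higher (median -0.13). CSE1L, which returns the KPNA adaptors to the cytoplasm, went from 111 ± 1.36 to 62.9 ± 2.01 (-0.80, adjusted p = 9.84e-06) and XPO6, the exporter of actin, from 85.6 ± 4.74 to 68.7 ± 1.72 (-0.31, adjusted p = 0.00287).

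In the Ran cycle, which gives transport its direction, 4 of 7 fell and 1 rose (median -0.29). RCC1, the chromatin-bound exchange factor of Ran, was at 49.6, 48.8 and 53.4 TPM in DMSO and 23.5, 26.0 and 22.5 in 4-OHT (-1.05, SE 0.0732, adjusted p = 2.96e-05). RANBP1, a Ran-binding protein, was at 309, 393 and 399 against 235, 223 and 235 (-0.66, adjusted p = 0.00125). Of 21 mRNA export genes 10 fell and 1 rose (median -0.30). THOC3 of the THO complex went from 63.2 ± 1.87 to 37.6 ± 0.0988 (-0.73, adjusted p = 2.3e-05), and ALYREF, an adaptor that loads the export receptor, from 124 ± 7.57 to 76.0 ± 5.84 (-0.70, adjusted p = 2e-04). These counts stand beside 29.9% lower and 19.8% higher among all genes tested, and beside the fall of all 19 proliferation genes.

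**Figure D4:**
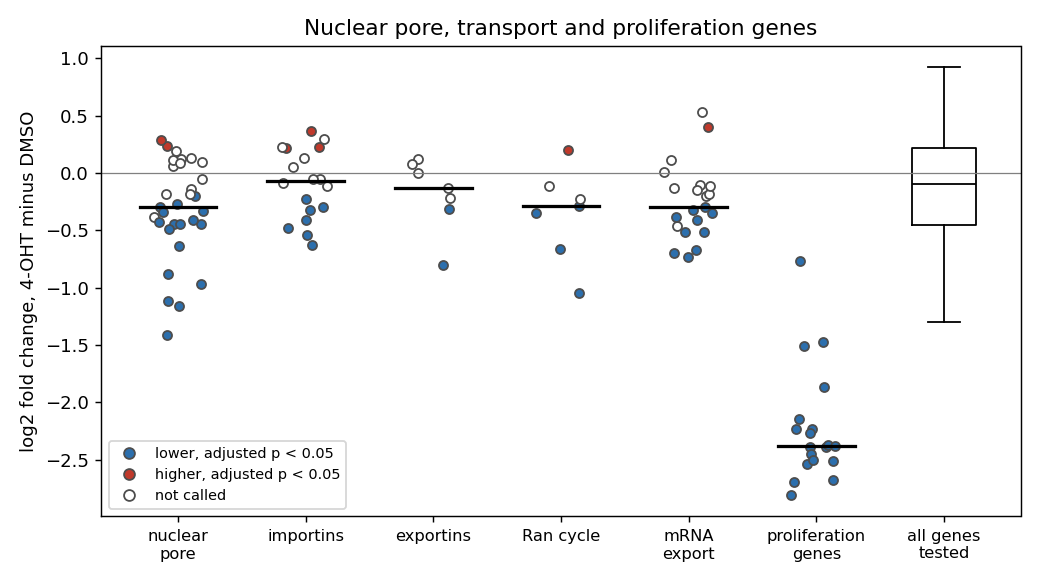
Log2 fold change (4-OHT minus DMSO) of each tested gene of the pore, of 4 transport lists and of the proliferation list, with a bar at each median, and a box for all genes tested (quartiles, whiskers at the 5th and 95th percentile). The pore median is -0.30 and the proliferation median -2.38.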

How the data were processed

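The deposited table holds TPM that the authors computed, which sum to 998367 to 998843 in a library. StringTie and STAR on GRCh38, after trimming by Trim Galore 0.6.6, are named in the submitters' processing notes. Which annotation and strand setting served, and whether libraries were scaled to each other, is not given in the sources used here. In DMSO replicate 3, 1 deposited value lay below 0 and was set to 0. TPM keep no read depth, so no detection limit was computed, and the 3 libraries per group limit the precision.

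Genes averaging 1 TPM or more were fitted on log2(TPM + 1) by limma 3.58.1 (R 4.3.3, moderated by eBayes along a mean-variance trend), 2-sided, without covariates, with Benjamini-Hochberg adjustment over all genes tested. The fit was tested on simulated data. The alternatives were other scalings, filters and pseudocounts, no variance trend, the replicate number as a block, each library left out in turn, and POM121 and POM121C summed. Positions come from GENCODE 29, windows before gene starts from RefSeq. Stretches of 100 bases were compared between transcripts of GENCODE 29.

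The members and lists were chosen with earlier results of these data known. Named genes are all members, the 2 genes with the largest change among those called in each transport list, and MKI67. A planned share of mitochondrially encoded genes could not be used, since they are listed at 0. Python 3.11.15, pandas 2.3.3, numpy 2.4.6 and matplotlib 3.10.9 made tables and plots.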

Additional observations from a re-analysis of the deposited data

How the results depend on the processing

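The count of members called lower stayed between 13 and 17 over the alternatives, within 1.5 times of 17, and was 15 with the replicate block. The labels do not say that replicate numbers pair samples, so the numbers were not taken as pairs. Same-numbered libraries also did not deviate together (correlations of 0.0475, 0.00549 and 0.00664). With the replicate block 1 cytoplasmic gene was called lower in place of 2, as with no filter on low values and under both scalings. Under median-of-ratios scaling no basket gene was lower (0). There 7 members, 5 importins and 2 exportins were higher, beside 26.5% of all genes tested. The median of the members was then -0.19, as under quantile normalization. No Ran cycle gene was higher (0) with no filter or no variance trend. With POM121 and POM121C summed 1 member was higher.

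Leaving out 1 library in turn gave 1 to 2 members higher, 1 to 2 cytoplasmic genes lower, 1 to 2 importins higher, 0 to 1 Ran cycle genes higher and 14 to 16 members lower. The single importin came without 4-OHT replicate 1 or 3 or DMSO replicate 3, and the 0 without 4-OHT replicate 1 or DMSO replicate 1. Signs turned for SEC13 (-0.01 under quantile normalization, -0.05 without DMSO replicate 2, in a range of -0.05 to 0.17 with 1 library left out) and POM121C (0.06 under median-of-ratios scaling, 0.01 under quantile normalization, 0.01 without 4-OHT replicate 1, in a range of -0.12 to 0.01), neither of which was called. The cause of these changes was not tested.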

Other observations

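Relatives of the pore genes outside the list, chosen after their values were seen, were low in both groups. NUP62CL, a relative of NUP62, was at 0.153, 0.184 and 0.142 TPM in 4-OHT and 0.125, 0.0513 and 0.107 in DMSO. NUP210L, a relative of NUP210, did not exceed 0.0418 TPM in any library. POM121B, a further copy of POM121, was at 4.23, 3.94 and 5.31 TPM in 4-OHT and 4.61, 3.47 and 3.42 in DMSO, with overlapping groups.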
